A study of Rattus norvegicus with 4 samples.

Results

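The mitochondrial respiratory chain subunits are the proteins that make up the 5 enzyme complexes of oxidative phosphorylation in the inner mitochondrial membrane. Members were chosen by gene symbol alone: symbols that start with Ndufa, Ndufb, Ndufc, Ndufs or Ndufv and go on with a digit (complex I), the genes Sdha, Sdhb, Sdhc and Sdhd (complex II), and symbols that start with Uqcr (complex III), with Cox and a digit from 4 to 8 (complex IV), or with Atp5 (complex V). Of 26514 genes on the array, 84 fitted, and they were read by 102 of the 30367 gene probes. Complex I held 38 of these genes, complex II 4, complex III 7, complex IV 17 and complex V 18. The symbol also takes in a few genes that are not subunits, such as Cox4nb, now named Emc8, a member of a membrane protein insertion complex of the endoplasmic reticulum.

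Weanling male rats of the Sprague-Dawley strain were given, over 3 weeks, a diet with 5 ppm iron (iron-deficient, FeD), 35 ppm iron (iron-adequate, FeA, the control) or 20275 ppm iron (iron-overload, FeO), and the whole pancreas was taken. The iron contents are those given in the sample labels. The RNA of 6 rats was pooled for each diet. Each of the FeD and FeO pools was hybridised together with the FeA pool to 2 two-colour arrays, with the diet pool in the dye Cy5 on array 1 and in Cy3 on array 2, and all 4 arrays lay on 1 slide read in 1 scan. The same 2 RNA pools lay on both arrays of a comparison, so each comparison is 1 replicate, the difference between its arrays is technical, and the effect of diet could not be tested. The comparisons ask how the pancreas responds to too little and to too much dietary iron, and they share the FeA pool.

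Electrons from nutrients enter the chain at complex I, which oxidises NADH, or at complex II, which oxidises succinate, and travel through complex III and cytochrome c to complex IV, where oxygen is reduced to water. The proton gradient built on the way drives complex V, the ATP synthase. The chain is rich in iron, with iron-sulfur clusters in complexes I to III and haem groups in complexes II to IV. In the pancreas, acinar cells spend ATP on making and secreting digestive enzymes, and beta cells use mitochondrial ATP production to couple glucose to insulin release.

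The measure throughout is the log2 ratio, the base 2 logarithm of the diet pool's signal over the FeA pool's signal on the same array, negative where the diet pool was lower. Each array carried 42877 spots of gene probes, and the median spot signal of a channel was between 115 and 222.5 intensity units, where the median of the background around the spots was between 50 and 87. A gene was analysed in a comparison when it was well above background in at least 1 of the 2 pools on both arrays, and it was read from its brightest probe. Of the 84 members, 83 passed in each comparison, and 82 passed with every pool well above background on every array. Cox8c, a testis isoform of a complex IV subunit, was above background in 0 arrays of any pool and has no ratio here. Atp5s, now named Dmac2l, was above background in the FeD pool on 1 of 2 arrays. No member probe had a saturated spot. Subunits encoded by mitochondrial DNA were matched by 0 genes of the array and are not analysed here.

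A gene was called lower or higher when its mean log2 ratio over both arrays was at least 0.5 in size and its sign was the same on both. In FeD over FeA, 0 of 83 members were called lower (0.979% of 15733 genes) and 0 were called higher (1.86% of genes). In FeO over FeA, 0 of 83 members were called lower (2.06% of 16433 genes) and 0 were called higher (3.5% of genes). No respiratory chain gene passed the criterion in either diet, so the values that follow are differences smaller than it.

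The median log2 ratio of the members in FeD over FeA was -0.07 on array 1 and -0.07 on array 2, with a median of -0.06 for the means. Over all genes the same median was 0.01. The quartiles were -0.12 and 0.01 for the members against -0.08 and 0.11 for all genes. In FeO over FeA the members' median was -0.04 on array 1, 0.00 on array 2 and -0.03 for the means, against 0.01 for all genes, and it turned to 0.08 when arrays were centred on their median instead of normalized by loess. Their quartiles there were -0.12 and 0.09, against -0.11 and 0.14 for all genes. With median centring the members' median in FeD was 0.35 on array 1 and -0.62 on array 2, where all genes had 0.22 and -0.20. The members thus lay slightly below all genes on both FeD arrays by loess, while with median centring their side and sign depended on the array.

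Signs were also counted, by the loess-normalized ratios unless stated. In FeD, 30 of 83 members (36.1%) were negative on both arrays, a share that was 21.3% over all genes. Another 7 members (8.43%) were positive on both, against 25.1% of all genes, and 46 had opposite signs. In FeO, 27 members (32.5%) were negative on both arrays, against 24.3% of all genes, and 20 (24.1%) were positive on both, against 27.7% of all genes. The remaining 36 had opposite signs on the arrays of FeO. With median centring, 1 member was negative and 1 positive on both arrays of FeD (11.9% and 14.6% of all genes), and 1 was negative and 8 were positive on both arrays of FeO (14.5% and 22.7% of all genes). The signs on single arrays given below are therefore those of the loess-normalized ratios.

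**Figure D1:**
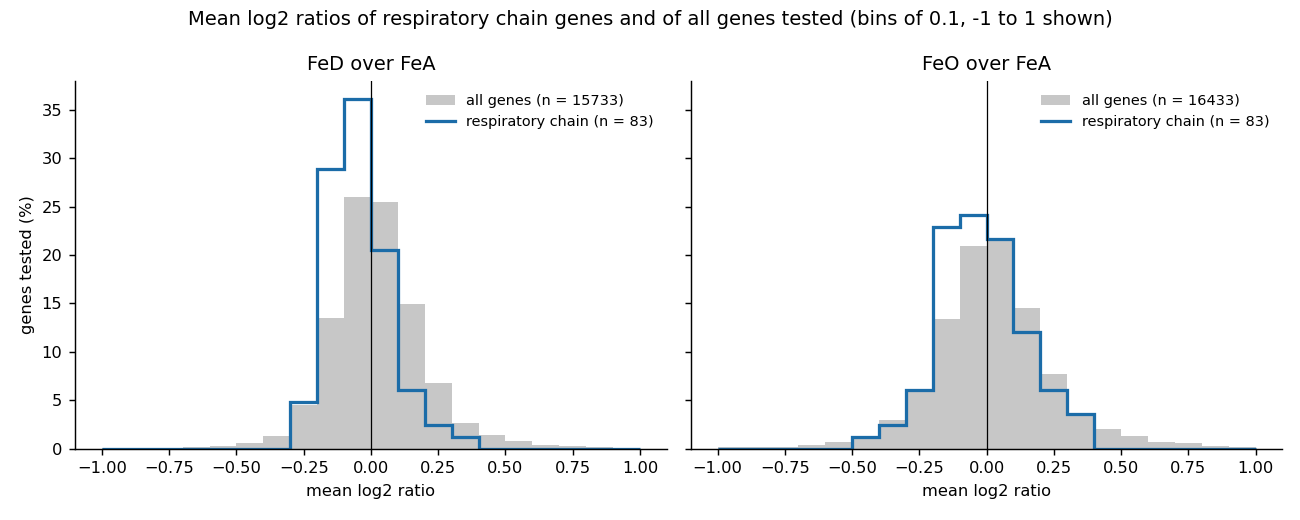
Percentage of genes (y axis) by mean log2 ratio over both arrays (x axis, bins of 0.1), for the 83 respiratory chain genes (line) and all genes analysed (grey), in FeD over FeA (left, 15733 genes) and FeO over FeA (right, 16433 genes). The members' median is -0.06 in FeD and -0.03 in FeO (0.08 with median centring), and no member lies beyond -0.46 or 0.39.

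The histograms of mean ratios show that no member reached the tails in which called genes lie. The members ranged from -0.29 for Atp5a1 to 0.39 for Cox6b2 in FeD. In FeO they ranged from -0.46 for Ndufb4 to 0.33 for Ndufs7. With a smaller size of 0.3, chosen as an alternative, 0 members were lower in FeD (2.83% of genes) and 1 was higher, Cox6b2 (5.54% of genes). In FeO, 3 were then lower, Ndufb4, Atp5a1 and Ndufb4l1 (6.01% of genes), and 2 were higher, Atp5sl and Ndufs7 (8.2% of genes).

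**Figure D2:**
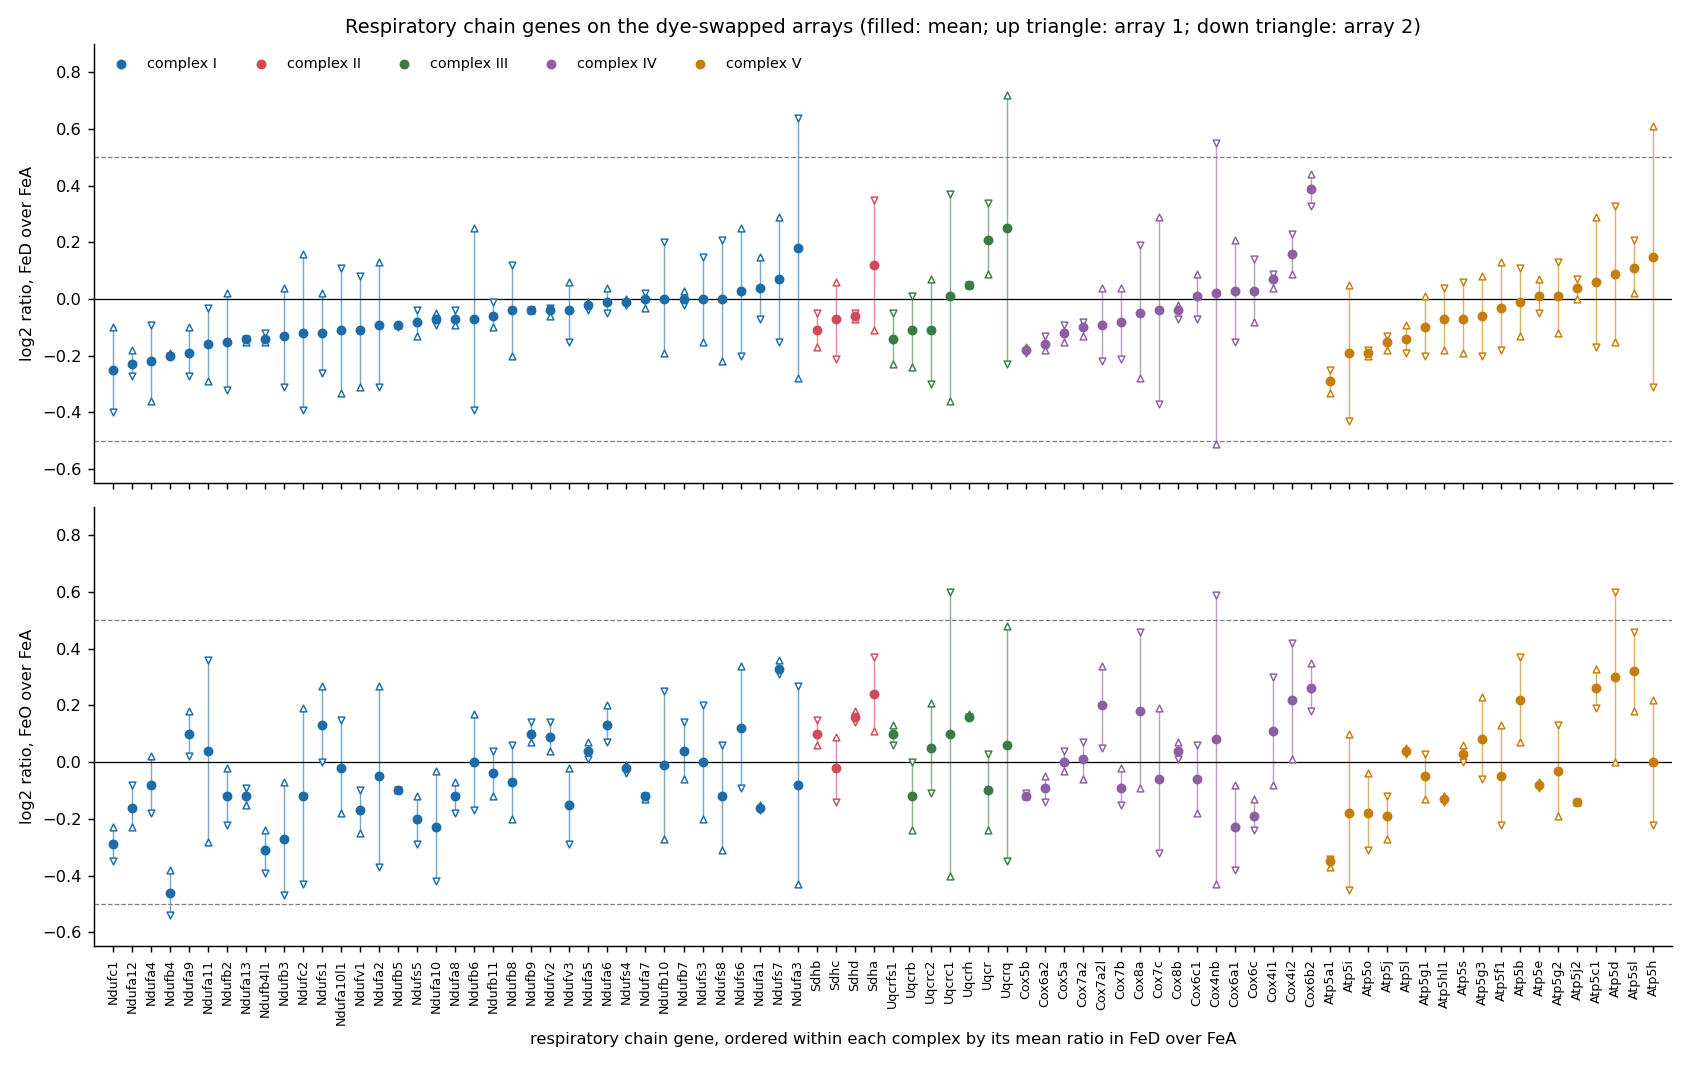
Log2 ratio (y axis) of respiratory chain genes (x axis, ordered within complexes I to V by mean in FeD) on array 1 (up triangle), on array 2 (down triangle) and as their mean (filled), in FeD over FeA (top) and FeO over FeA (bottom), with dashed lines at -0.5 and 0.5. Means stay inside the dashed lines, from -0.29 to 0.39 in FeD and from -0.46 to 0.33 in FeO, while single arrays reach 0.72 for Uqcrq.

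The plot of genes by array shows that the vertical span between the triangles was longer than the distance of the mean from 0 in 60 of 83 members in FeD (72.1% of all genes) and in 53 in FeO (68.7% of all genes). The distance of an array from the mean of both had a median of 0.11 in FeD and 0.10 in FeO for the members, while the size of the mean itself had a median of 0.08 and 0.11.

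Complex I, the NADH dehydrogenase, is the largest complex of the chain, with a hydrophilic arm that carries the electrons and a membrane arm that pumps protons. Its 38 genes had a median log2 ratio in FeD of -0.09 on array 1 and -0.07 on array 2, and of -0.07 for the means. Of these genes, 18 (47.4%) were negative on both arrays and 0 were positive on both. In FeO the median was -0.08 on array 1, -0.09 on array 2 and -0.07 for the means, and with median centring it was 0.03. Here 16 genes were negative on both arrays and 6 were positive on both. In words, complex I had more genes negative on both arrays than positive on both in each diet, by the loess-normalized ratios.

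Ndufb4, an accessory subunit of the membrane arm, had a log2 ratio in FeO of -0.38 on array 1 and -0.54 on array 2, a mean of -0.46 or 1.38-fold lower. In FeD it read -0.19 on array 1 and -0.20 on array 2, a mean of -0.20. It was lower than in FeA on all 4 arrays, and its FeO mean was the lowest of all members. Another probe of Ndufb4 gave -0.37 and 0.11 on the FeO arrays, a mean of -0.13, and -0.36 and 0.16 on the FeD arrays, a mean of -0.10. That probe was thus negative on the arrays with the diet in Cy5 and positive on those with the diet in Cy3. Ndufb4l1, whose name marks it as like Ndufb4, read -0.24 and -0.39 in FeO, a mean of -0.31. In FeD it read -0.15 and -0.12, a mean of -0.14. Its sign was negative on all 4 arrays as well.

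Other accessory subunits had the same sign on all 4 arrays by their brightest probe. Ndufc1, in the membrane arm, read -0.10 and -0.40 in FeD (mean -0.25) and -0.23 and -0.35 in FeO (mean -0.29). Ndufa12, at the hydrophilic arm, read -0.18 and -0.27 in FeD (mean -0.23) and -0.23 and -0.08 in FeO (mean -0.16). Ndufs5, an accessory subunit at the face to the intermembrane space, read -0.13 and -0.04 in FeD (mean -0.08) and -0.12 and -0.29 in FeO (mean -0.20). The 3 genes were negative on all 4 arrays, with unequal sizes, but another probe of Ndufs5 read 0.24 and -0.33 in FeD and 0.00 and -0.21 in FeO. Ndufa10, an accessory subunit of the membrane arm, read -0.05 and -0.09 in FeD (mean -0.07) and -0.03 and -0.42 in FeO (mean -0.23), so that array 2 of FeO carried most of its difference.

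Several complex I genes differed between the diets in sign or between arrays. Ndufa9, which sits near the ubiquinone site, read -0.10 and -0.27 in FeD (mean -0.19) and 0.18 and 0.02 in FeO (mean 0.10). It was negative on both FeD arrays and positive on both FeO arrays. Ndufa11, a membrane subunit, read -0.29 and -0.03 in FeD (mean -0.16) and -0.28 and 0.36 in FeO (mean 0.04). Ndufa11 was negative on the FeD arrays and had opposite signs on the FeO arrays. Ndufb3, an accessory subunit of the membrane arm, read 0.04 and -0.31 in FeD (mean -0.13) and -0.07 and -0.47 in FeO (mean -0.27). Ndufa3, also in the membrane arm, read -0.28 and 0.64 in FeD (mean 0.18, the highest of the complex) and -0.43 and 0.27 in FeO (mean -0.08). In Ndufa3 the array with the diet in Cy5 was negative and the array with the diet in Cy3 positive in each comparison.

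Ndufa4, placed by its symbol in complex I and now known as a subunit of complex IV, read -0.36 and -0.09 in FeD, a mean of -0.22. In FeO it read 0.02 and -0.18, a mean of -0.08. It was negative on both arrays of FeD and had opposite signs in FeO, where its mean was 0.03 with median centring.

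Complex II, succinate dehydrogenase, belongs to the citric acid cycle as well as to the chain, and its 4 subunits are encoded in the nucleus. Sdhb, the iron-sulfur subunit, read -0.17 and -0.05 in FeD (mean -0.11) and 0.06 and 0.15 in FeO (mean 0.10). Sdhd, a membrane anchor that helps hold the haem, read -0.07 and -0.05 in FeD (mean -0.06) and 0.18 and 0.14 in FeO (mean 0.16). Both genes were negative on the FeD arrays and positive on the FeO arrays. Sdha, the flavoprotein that oxidises succinate, read -0.11 and 0.35 in FeD (mean 0.12) and 0.11 and 0.37 in FeO (mean 0.24). Sdhc, the other membrane anchor, read 0.06 and -0.21 in FeD (mean -0.07) and 0.09 and -0.14 in FeO (mean -0.02). Sdha was positive on 3 of its 4 arrays, and Sdhc had opposite signs on the arrays of each comparison. The median of the 4 genes was -0.07 in FeD (array 1 -0.09, array 2 -0.05) and 0.13 in FeO (array 1 0.10, array 2 0.14). The FeO median of complex II was the highest of the 5 complexes over both arrays, but on array 1 alone that of complex III was higher, 0.13 against 0.10. It was from 0.10 to 0.19 over the alternative settings tried.

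Complex III, the cytochrome bc1 complex, passes electrons from ubiquinol to cytochrome c. Its 7 genes had a median of 0.01 in FeD (array 1 0.05, array 2 0.01), which was -0.07 with median centring, and of 0.06 in FeO (array 1 0.13, array 2 0.03). Uqcrfs1, the Rieske iron-sulfur protein, read -0.23 and -0.05 in FeD (mean -0.14) and 0.13 and 0.06 in FeO (mean 0.10). Uqcrh, the hinge protein, read 0.05 and 0.05 in FeD (mean 0.05) and 0.17 and 0.16 in FeO (mean 0.16). Uqcrfs1 was negative on the FeD arrays and positive on the FeO arrays, whereas Uqcrh was positive on all 4, although its FeD mean was -0.02 with median centring. Uqcr, now named Uqcr11, a small accessory subunit, read 0.09 and 0.34 in FeD (mean 0.21) and -0.24 and 0.03 in FeO (mean -0.10). Of the other probes of Uqcr, 1 had a mean of -0.08 in FeD (FeO -0.13) and 1 a mean of 0.02 in FeD (FeO 0.15), so its probes did not share a sign in either diet. Uqcrb, an accessory subunit near the ubiquinone site, read -0.24 and 0.01 in FeD (mean -0.11) and -0.24 and 0.00 in FeO (mean -0.12). Another probe of Uqcrb had the reverse order of arrays, with 0.03 and -0.23 in FeD and 0.13 and -0.13 in FeO. Uqcrq, another small subunit, read 0.72 and -0.23 in FeD (mean 0.25) and 0.48 and -0.35 in FeO (mean 0.06), so its FeD mean, the highest of the complex, rested on array 1 alone.

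Complex IV, cytochrome c oxidase, reduces oxygen, and several of its nuclear subunits exist as a common isoform and an isoform of certain tissues or conditions. Its 16 analysed genes had a median of -0.04 in FeD (array 1 0.01, array 2 -0.07) and of 0.00 in FeO (array 1 -0.05, array 2 0.04). The 9 common isoforms had a median of -0.05 in FeD and of -0.06 in FeO, the latter 0.04 with median centring. The 4 analysed isoforms of certain tissues or conditions had a median of 0.06 in FeD (array 1 0.03, array 2 0.08), which was -0.04 without the filter on dim probes, and of 0.13 in FeO (array 1 0.04, array 2 0.09). Cox6b2, known as a testis isoform, read 0.44 and 0.33 in FeD (mean 0.39, 1.31-fold higher) and 0.35 and 0.18 in FeO (mean 0.26). Its only probe was bright, with log2 signals from 11.58 to 12.61, while the testis isoform Cox8c was at background. Which transcript the Cox6b2 probe reads was not tested. Cox4i2, an isoform known from lung and from low oxygen, read 0.09 and 0.23 in FeD (mean 0.16) and 0.01 and 0.42 in FeO (mean 0.22). Both isoforms were positive on all 4 arrays. Cox6a2, an isoform of heart and skeletal muscle, read -0.18 and -0.13 in FeD (mean -0.16) and -0.05 and -0.14 in FeO (mean -0.09). Cox8b, also of heart and skeletal muscle, read -0.02 and -0.07 in FeD (mean -0.04) and 0.07 and 0.01 in FeO (mean 0.04). Both muscle isoforms were dim, with log2 signals from 6.8 to 7.31 for Cox6a2 and from 6.55 to 6.84 for Cox8b. Atp5s, in part not above background, had 6.64 to 6.83 in the FeD comparison. The readings of the muscle isoforms, so near background, did not share the sign of Cox6b2 and Cox4i2 in FeD. With the scanner software's processed signals Cox8b was 0.13 in FeD and Cox6a2 was 0.04 in FeO.

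Among the common isoforms of complex IV, Cox4i1 read 0.04 and 0.09 in FeD (mean 0.07) and -0.08 and 0.30 in FeO (mean 0.11). Cox5b read -0.17 and -0.19 in FeD (mean -0.18, the lowest of the complex) and -0.12 and -0.11 in FeO (mean -0.12). Cox5a read -0.15 and -0.09 in FeD (mean -0.12) and -0.03 and 0.04 in FeO (mean 0.00). Cox5b was negative on all 4 arrays with little difference between them, although its FeO mean was 0.05 with median centring. Cox6a1 read 0.21 and -0.15 in FeD (mean 0.03) and -0.08 and -0.38 in FeO (mean -0.23). Cox6c read -0.08 and 0.14 in FeD (mean 0.03) and -0.13 and -0.24 in FeO (mean -0.19). These 2 genes were negative on both FeO arrays and had opposite signs on the FeD arrays. Cox7a2 read -0.13 and -0.08 in FeD (mean -0.10) and -0.06 and 0.07 in FeO (mean 0.01), while another of its probes read 0.19 and -0.41 in FeD and 0.35 and -0.20 in FeO. Cox8a read -0.28 and 0.19 in FeD (mean -0.05) and -0.09 and 0.46 in FeO (mean 0.18). The remaining common isoforms, Cox7b and Cox7c, had FeD means of -0.08 and -0.04 and FeO means of -0.09 and -0.06. Cox7a2l, a factor that joins complexes III and IV into supercomplexes, read 0.04 and -0.22 in FeD (mean -0.09) and 0.34 and 0.05 in FeO (mean 0.20).

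Complex V, the ATP synthase, has a catalytic F1 head, a membrane rotor with a ring of c subunits, and a peripheral stalk that holds the head still. Its 18 genes had a median of -0.04 in FeD (array 1 -0.04, array 2 -0.15) and of -0.04 in FeO (array 1 0.02, array 2 -0.08), the latter 0.12 with median centring. Atp5a1, the alpha subunit of the head, now named Atp5f1a, read -0.33 and -0.25 in FeD (mean -0.29, 1.22-fold lower). In FeO it read -0.37 and -0.34 (mean -0.35, 1.28-fold lower). It was negative on all 4 arrays, had the lowest FeD mean of all members, and was -0.12 in FeO with median centring. Atp5b, the catalytic beta subunit, read -0.13 and 0.11 in FeD (mean -0.01) and 0.07 and 0.37 in FeO (mean 0.22). Atp5c1, the gamma subunit that turns inside the head, read 0.29 and -0.17 in FeD (mean 0.06) and 0.33 and 0.19 in FeO (mean 0.26). Atp5d, the delta subunit of the rotor, which was picked after its values were seen, read -0.15 and 0.33 in FeD (mean 0.09) and 0.00 and 0.60 in FeO (mean 0.30). The subunits of the F1 head therefore did not share a sign: the alpha subunit was negative in FeO and the beta and gamma subunits positive on both FeO arrays, signs that their FeO means kept with median centring.

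The 5 genes of the F1 head had a median of 0.01 in FeD (array 1 -0.13, array 2 -0.05), which was -0.05 with median centring, and of 0.22 in FeO (array 1 0.00, array 2 0.19). Without array 2 the FeO median of the head was thus 0.00. The 3 genes of the c ring, Atp5g1, Atp5g2 and Atp5g3, had a median of -0.06 in FeD (array 1 0.01, array 2 -0.20) and of -0.03 in FeO (array 1 -0.13, array 2 0.03), the latter 0.15 with median centring. By its brightest probe each of these c ring genes had opposite signs on the arrays of both comparisons. Another probe of Atp5g3 read -0.17 and -0.13 in FeD and 0.18 and 0.19 in FeO. The 4 genes of the peripheral stalk had a median of -0.09 in FeD (array 1 -0.03, array 2 -0.18) and of -0.11 in FeO (array 1 0.04, array 2 -0.22), the latter 0.06 with median centring. Atp5o, at the top of the stalk, read -0.20 and -0.18 in FeD (mean -0.19) and -0.04 and -0.31 in FeO (mean -0.18). Atp5j, another stalk subunit, read -0.18 and -0.13 in FeD (mean -0.15) and -0.27 and -0.12 in FeO (mean -0.19). Both stalk subunits were negative on all 4 arrays, although Atp5o was 0.02 in FeO with median centring. Atp5h, also of the stalk, read 0.61 and -0.31 in FeD (mean 0.15) and 0.22 and -0.22 in FeO (mean 0.00). Atp5sl, now named Dmac2, which is not a subunit of the synthase but takes part in the assembly of complex I, read 0.02 and 0.21 in FeD (mean 0.11) and 0.18 and 0.46 in FeO (mean 0.32). Atp5j2, a small subunit of the membrane part, read 0.00 and 0.07 in FeD (mean 0.04) and -0.14 and -0.14 in FeO (mean -0.14). Atp5sl was thus positive on all 4 arrays, and Atp5j2 had opposite signs in the comparisons, which with median centring turned to -0.03 in FeD and 0.05 in FeO.

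Iron is built into 7 members as iron-sulfur clusters: Ndufs1, Ndufs7, Ndufs8, Ndufv1 and Ndufv2 of complex I, Sdhb of complex II and Uqcrfs1 of complex III. Their median was -0.11 in FeD (array 1 -0.17, array 2 -0.05) and 0.10 in FeO (array 1 0.06, array 2 0.06). Ndufs7, which passes electrons on to ubiquinone, read 0.29 and -0.15 in FeD (mean 0.07) and 0.36 and 0.31 in FeO (mean 0.33, 1.26-fold higher). Ndufs1, a large iron-sulfur subunit of complex I, read 0.02 and -0.26 in FeD (mean -0.12) and 0.27 and 0.00 in FeO (mean 0.13). By the brightest probe of each gene, Ndufs7 thus had the highest FeO mean of all members, with its FeD arrays of opposite sign. A less bright probe of Ndufv3 had a higher FeO mean, 0.48. Ndufv1, which binds NADH, read -0.31 and 0.08 in FeD (mean -0.11) and -0.25 and -0.10 in FeO (mean -0.17). Ndufv2, its neighbour in the hydrophilic arm, read -0.06 and -0.03 in FeD (mean -0.04) and 0.04 and 0.14 in FeO (mean 0.09). Ndufs8, a further carrier of clusters, read -0.22 and 0.21 in FeD (mean 0.00) and -0.31 and 0.06 in FeO (mean -0.12). Ndufv1 and Ndufs8 were lower in FeO than in FeD, and the other 5 were higher in FeO than in FeD. The FeO mean minus the FeD mean had a median of 0.21 over the 7 genes, with 5 of 7 above 0, against 0.00 and 50.2% above 0 over 15259 genes. No FeO array was hybridised against the FeD pool, so this difference is indirect and was not tested.

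**Figure D3:**
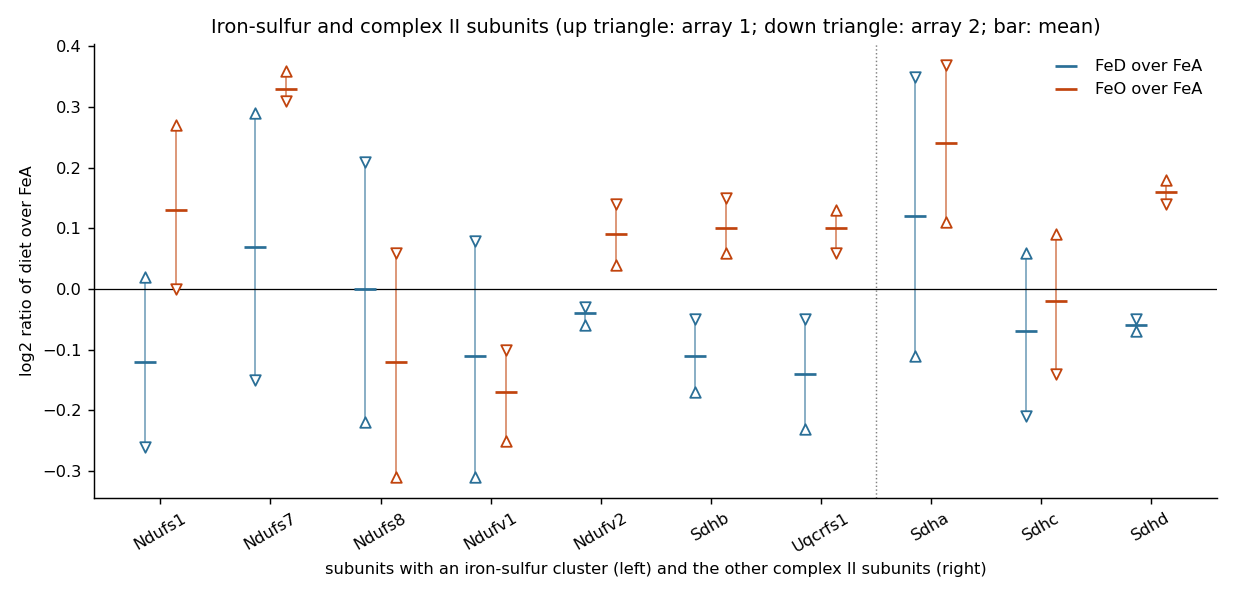
Log2 ratio of diet over FeA (y axis) of the 7 subunits with an iron-sulfur cluster (x axis, left of the dotted line) and of the other complex II subunits (right), in FeD (blue) and FeO (orange), on array 1 (up triangle), array 2 (down triangle) and as the mean (bar). Sdhb, Uqcrfs1, Ndufv2 and Sdhd lie below 0 on both FeD arrays and above 0 on both FeO arrays, while Sdhc has an FeO mean of -0.02.

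The plot of iron-sulfur and complex II subunits shows the genes whose arrays separate by diet beside those whose arrays overlap. In Sdhb, Sdhd, Uqcrfs1, Ndufv2 and Ndufs7 the FeD and FeO arrays did not overlap. In Sdha, Sdhc, Ndufs1, Ndufs8 and Ndufv1 they did. Such arrays without overlap were found in 25 of 83 members (30.1%) and in 29.2% of 15259 genes.

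Over all 83 members, the FeO mean minus the FeD mean had a median of 0.03, with 49 above 0. By complex this median was 0.01 for complex I, 0.17 for complex II, 0.09 for complex III, 0.06 for complex IV and 0.01 for complex V. Complex II was the complex in which 4 of 4 genes had a higher mean in FeO than in FeD. The extremes were -0.32 for Uqcr, by the brightest of its 3 probes, and 0.29 for Ndufa9.

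In 28 members (33.7%, against 32.4% of 15259 genes) the dye-swapped arrays had opposite signs in each comparison. The order of the signs was the same in both comparisons in 25 of them and reversed in 3. Cox4nb read -0.51 and 0.55 in FeD (mean 0.02) and -0.43 and 0.59 in FeO (mean 0.08), and it was picked after its values were seen. Uqcrc1, a core protein of complex III picked in the same way, read -0.36 and 0.37 in FeD (mean 0.01) and -0.40 and 0.60 in FeO (mean 0.10). In FeD, both arrays of Cox4nb exceeded 0.5 in size while its mean was 0.02. Uqcrq and Atp5h had the reverse order, positive with the diet in Cy5 and negative with it in Cy3.

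**Figure D4:**
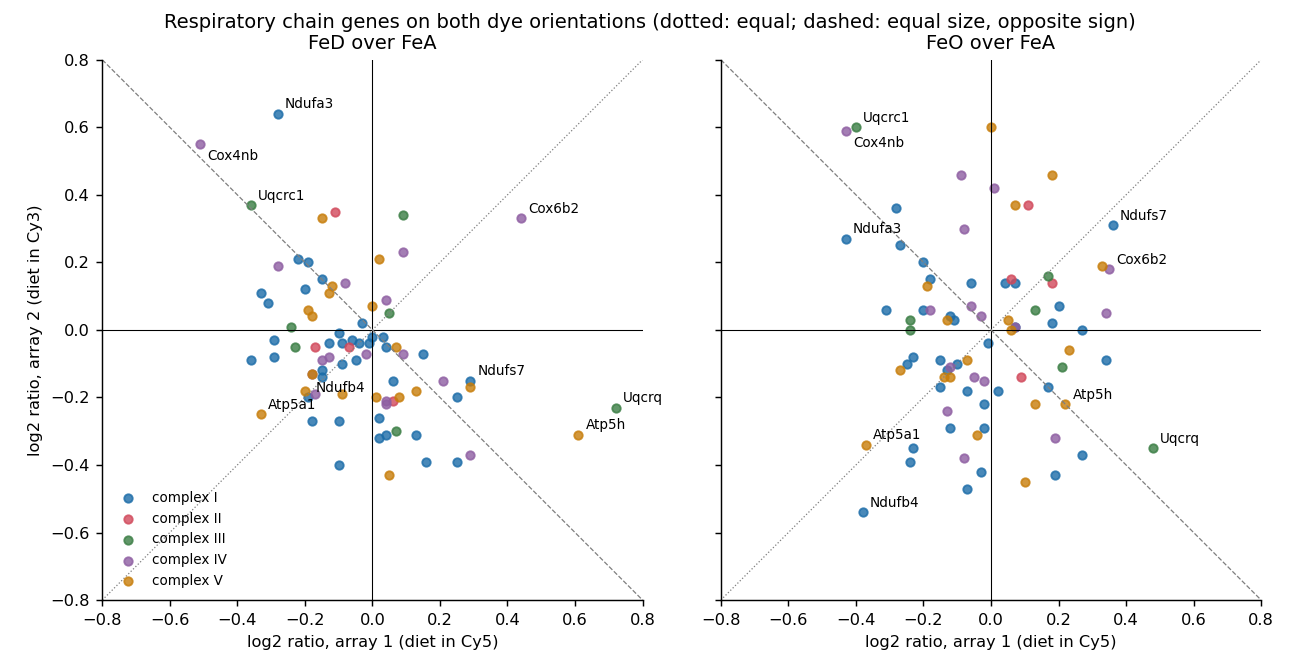
Log2 ratio on array 1, with the diet in Cy5 (x axis), against array 2, with the diet in Cy3 (y axis), for each respiratory chain gene coloured by complex, in FeD over FeA (left) and FeO over FeA (right), with equal ratios on the dotted line and opposite ratios on the dashed line. Cox4nb, at -0.51 and 0.55 in FeD, lies near the dashed line, and Cox6b2, at 0.44 and 0.33, near the dotted line.

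In the plot of array 1 against array 2, 46 members lay in the quadrants of opposite sign in FeD and 36 in FeO. Cox6b2, Atp5a1 and, in FeO, Ndufb4 and Ndufs7 were among the farthest out along the line of equal ratios.

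Of the member probes, 14 were printed on 10 spots each, which gives the error within an array. The standard deviation of the log2 ratio over spots ranged from 0.07 to 0.20 among these probes, with a median of 0.14. Ndufs3, a core subunit of the hydrophilic arm that was picked for this repeat, read -0.15 (SD 0.07) and 0.15 (SD 0.07) in FeD and -0.20 (SD 0.07) and 0.20 (SD 0.09) in FeO. Its arrays thus differed from each other by more than the spread of its spots, in opposite directions that cancelled in the mean. Ndufb9, a membrane arm subunit picked in the same way, read -0.04 (SD 0.07) and -0.04 (SD 0.08) in FeD and 0.07 (SD 0.07) and 0.14 (SD 0.09) in FeO. Sdhd, also on 10 spots, had standard deviations of 0.14 and 0.12 on the FeD arrays and of 0.15 and 0.12 on the FeO arrays. The standard errors over its spots were 0.046 and 0.037 in FeD and 0.047 and 0.038 in FeO.

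Several probes read 16 of the members, and in 13 genes more than 1 probe passed. The difference between the probes of a gene had a median of 0.06 in FeD and of 0.08 in FeO. It exceeded 0.5 in 0 genes in FeD and in 1 gene in FeO, Ndufv3. In Ndufv3, an accessory subunit of the hydrophilic arm, the probe on 10 spots read 0.36 and 0.60 in FeO, a mean of 0.48. Its brightest probe read -0.02 and -0.29, a mean of -0.15, and the remaining probe had a mean of -0.02. In FeD the same 3 probes had means of -0.05, -0.04 and 0.09. The probes of Ndufv3 therefore split in FeO and not in FeD, and which transcript each of them reads was not tested.

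The positions and promoter letters of the members were listed without a test, and the positions without a share over all genes. All 84 were placed on the rat reference, where they lay on 20 chromosomes, with at most 13 on a chromosome. Cox4i1 and Cox4nb are neighbours on chromosome 19, with 54 bases between them. In their mean ratios they read 0.07 and 0.02 in FeD and 0.11 and 0.08 in FeO. Promoters, here 250 bases before to 50 after the transcript start, were found for 71 members in the RefSeq table of build GRCr8, which holds 33469 promoters. Nuclear genes of the chain are known targets of the factors NRF1, GABP and YY1, so short letter patterns of these were searched on both strands. GCGCANGCG, for NRF1, was in 18 of 71 member promoters (25.4%) and in 5.8% of all promoters. CCGGAAG, for GABP and other ETS factors, was in 21 (29.6%) and in 8.75% of all. AANATGGCG, for YY1, was in 16 (22.5%) and in 3.01% of all. At least 1 of the 3 patterns was in 44 member promoters (62%) and in 15.4% of all promoters. A match is a description of letters and not evidence of binding.

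The ratios of members with and without a pattern overlapped. With the NRF1 pattern the median was -0.05 in FeD (18 genes) and 0.04 in FeO, and without it -0.07 (52 genes) and -0.04. With the ETS pattern it was -0.09 (21 genes) and 0.04, and without it -0.06 (49 genes) and -0.04. With the YY1 pattern it was -0.03 (16 genes) and 0.04, and without it -0.07 (54 genes) and -0.03. In FeO, for instance, members with the NRF1 pattern ranged from -0.46 to 0.26 and those without it from -0.35 to 0.33. By complex, the YY1 pattern was in 11 of 34 promoters of complex I and in 0 of 13 of complex IV.

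The promoters of 3 members with the same sign on both arrays of each comparison are printed because Atp5a1 had the lowest mean of all members in FeD and Ndufb4 in FeO, and Sdhd was negative in FeD and positive in FeO. Each is the 250 bases before the start on the gene's own strand, 5′ to 3′, from RefSeq build GRCr8, with the matched pattern in capitals. The Atp5a1 window is chr18:73567287-73567536 on the plus strand, the Ndufb4 window chr11:76568928-76569177 on the plus strand, and the Sdhd window chr8:59850642-59850891 on the minus strand.
Atp5a1: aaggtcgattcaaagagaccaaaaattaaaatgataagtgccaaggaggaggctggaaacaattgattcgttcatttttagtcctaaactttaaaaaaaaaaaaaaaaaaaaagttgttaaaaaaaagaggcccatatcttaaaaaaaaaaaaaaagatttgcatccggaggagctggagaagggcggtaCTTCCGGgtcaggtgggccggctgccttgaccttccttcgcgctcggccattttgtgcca
Ndufb4: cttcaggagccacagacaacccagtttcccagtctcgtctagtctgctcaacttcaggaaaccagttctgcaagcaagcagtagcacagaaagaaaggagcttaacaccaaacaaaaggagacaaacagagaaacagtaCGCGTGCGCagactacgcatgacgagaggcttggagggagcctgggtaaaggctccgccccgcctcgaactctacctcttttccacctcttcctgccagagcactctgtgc
Sdhd: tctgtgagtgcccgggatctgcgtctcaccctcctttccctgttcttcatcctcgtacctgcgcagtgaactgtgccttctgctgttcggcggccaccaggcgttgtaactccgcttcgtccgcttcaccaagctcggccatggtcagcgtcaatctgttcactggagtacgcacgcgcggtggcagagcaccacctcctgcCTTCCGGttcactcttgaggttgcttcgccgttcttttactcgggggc
The capitals in Atp5a1 and Sdhd are the ETS pattern read from the other strand, and those in Ndufb4 are the NRF1 pattern read from the other strand. Atp5a1 and Sdhd thus held the same pattern while their FeO means were -0.35 and 0.16.

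Other genes of the mitochondrion were taken as lists. The mobile carrier cytochrome c, Cycs, read -0.29 and -0.25 in FeD (mean -0.27) and -0.10 and -0.30 in FeO (mean -0.20). Cyc1, the cytochrome c1 of complex III, read -0.34 and 0.16 in FeD (mean -0.09) and -0.28 and 0.18 in FeO (mean -0.05). Cycs was negative on all 4 arrays, and Cyc1 was negative with the diet in Cy5 and positive with it in Cy3 in each comparison. Assembly factors, which build the complexes, had a median of -0.07 in FeD (array 1 -0.02, array 2 -0.08) and of -0.03 in FeO (array 1 -0.03, array 2 -0.10) over 21 genes, the latter 0.01 with median centring, and 0 were called. Among them Foxred1, a complex I assembly factor, was the highest, with means of 0.31 in FeD and 0.20 in FeO, where its arrays read -0.15 and 0.55. The lowest were Ecsit in FeD, with a mean of -0.19, and Nubpl, which delivers iron-sulfur clusters to complex I, in FeO, with a mean of -0.33.

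Mitochondrial ribosomal proteins, which translate the subunits encoded by mitochondrial DNA, had a median of -0.07 in FeD and of -0.10 in FeO over 67 genes. In FeD 29 of them (43.3%, against 21.3% of all genes) were negative on both arrays and 7 (10.4%, against 25.1%) positive, with 0 called. In FeO 34 (50.7%, against 24.3%) were negative on both arrays and 8 (11.9%, against 27.7%) positive. There 1 was called lower, Mrpl18 (2.06% of all genes were), and 1 higher, Mrpl38 (3.5% of all genes). Mrpl18 read -0.21 and -0.89 in FeO (mean -0.55), and Mrpl38 read 0.59 and 0.61 (mean 0.60). In FeD these genes, the lowest and the highest of the list there too, had means of -0.41 and 0.39. Cytosolic ribosomal proteins, taken for contrast, had a median of 0.04 in FeD over 46 genes, which was -0.02 with median centring, and of 0.05 in FeO over 44 genes, which was -0.03 without array 1 and 0.29 with median centring. None of them was called in either diet.

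Regulators of mitochondrial biogenesis had a median of -0.04 in FeD (array 1 -0.04, array 2 -0.07) and of -0.07 in FeO (array 1 0.00, array 2 -0.08) over 11 genes, with 0 called. The coactivator Pprc1 was the lowest in each diet, with means of -0.23 in FeD and -0.29 in FeO. Polrmt, the mitochondrial RNA polymerase, was the highest in FeD at 0.20, and the nuclear receptor Esrra was the highest in FeO at 0.21. Enzymes of the citric acid cycle, the source of NADH and succinate for the chain, had a median of -0.04 in FeD (array 1 -0.19, array 2 -0.05) and of 0.14 in FeO (array 1 0.09, array 2 0.17) over 13 genes, with 0 called. Idh3a, a subunit of isocitrate dehydrogenase, read 0.10 and 0.84 in FeO (mean 0.47). Suclg1, of succinyl-CoA ligase, was the lowest in FeO at -0.28. In FeD, Cs, citrate synthase, was the lowest at -0.21 and Ogdh, of the oxoglutarate dehydrogenase complex, the highest at 0.14. The FeO mean minus the FeD mean was above 0 in 12 of these 13 enzymes, against 50.2% of all genes.

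Proteins of the outer membrane, of import and of protein folding in mitochondria had a median of -0.10 in FeD over 16 genes (array 1 -0.14, array 2 -0.04) and of 0.05 in FeO over 17 genes (array 1 0.03, array 2 0.07), with 0 called. Slc25a4, an exchanger of ADP and ATP, was the highest in FeO at 0.45, and Timm23, an import channel, the lowest at -0.31. In FeD, Slc25a5, another exchanger of ADP and ATP, was the lowest at -0.24 and Hspa9, a chaperone, the highest at 0.07. The FeO mean minus the FeD mean was above 0 in 13 of 16 genes of this list.

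**Figure D5:**
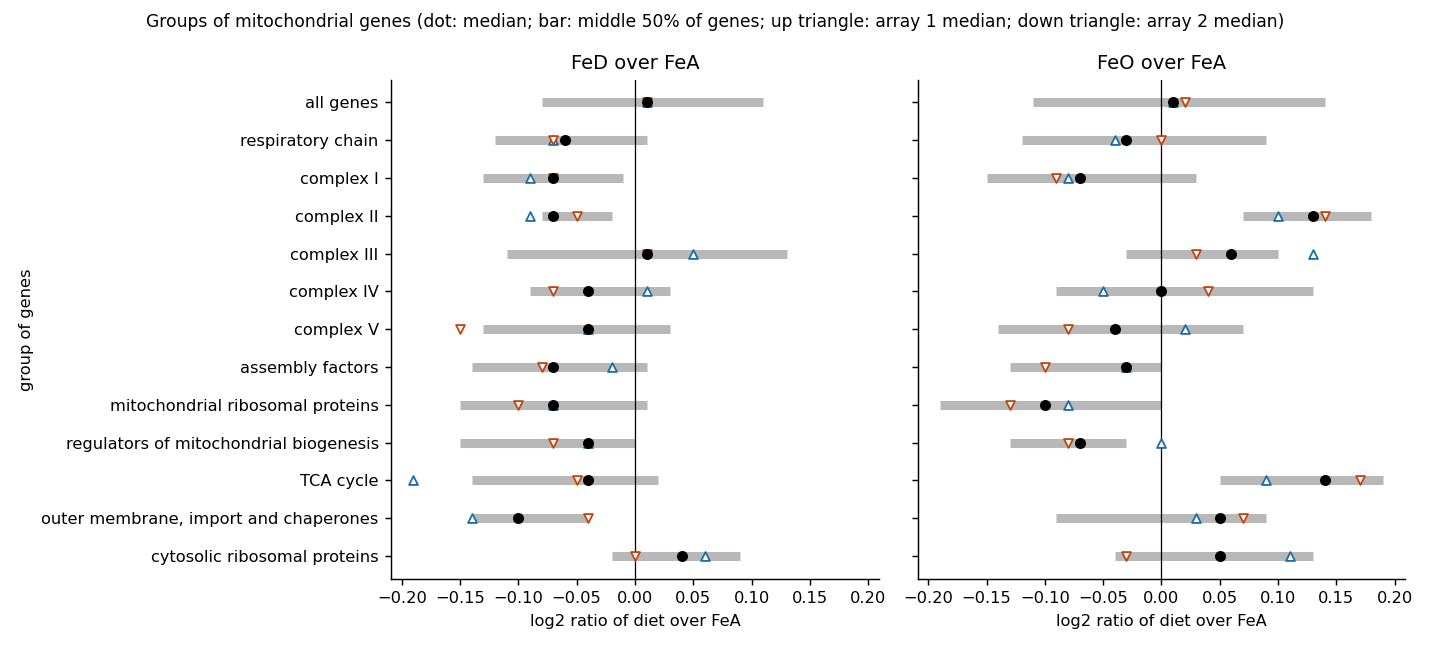
Median (dot) and middle 50% (bar) of the mean log2 ratio of diet over FeA (x axis) for groups of mitochondrial genes and for all genes (y axis), with the median on array 1 (up triangle) and on array 2 (down triangle), in FeD (left) and FeO (right). Complex II and the TCA (citric acid) cycle have FeO medians of 0.13 and 0.14, and with median centring the FeO medians of the respiratory chain, of complexes I and V and of the assembly factors turn to 0.08, 0.03, 0.12 and 0.01.

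In the plot of group medians, every group's median was smaller in size than the 0.5 of a call. In FeD, by loess, the medians of both arrays lay below 0 for the chain, for complexes I, II and V, and for each of the 5 other mitochondrial lists drawn.

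The pancreas is a mixture of cell types, and in such bulk RNA fewer cells of a type and less RNA per cell cannot be told apart. The labelled tissue showed its defining markers: 14 of 14 acinar and 8 of 8 islet markers were above background. By signal, Ctrb1 and Ins1 were the brightest, which is a rank of different probes and not of transcript abundance. Acinar markers had a median of -0.05 in FeD (array 1 0.19, array 2 -0.04), where 3 of 14 were called higher, Ctrb1, Cela1 and Ctrl, and 0 lower. In FeO their median was -0.30 over the 9 genes with a ratio, which was 0.09 with median centring, with 1 called lower, Cel at -0.65, and 0 higher. The other 5 had outlier spots and no ratio. The summed acinar signal was 3270000 in FeD and 2700000 in FeA on array 1, and 3000000 and 3080000 on array 2. In the FeO comparison it was 2750000 in FeO and 3080000 in FeA on array 1, and 2620000 and 3530000 on array 2. The sum was thus lower in FeO than in FeA on both arrays and without a common direction in FeD. The sum holds only probes with a ratio on all 4 arrays, so it leaves out the 5 genes without a ratio in FeO, in both comparisons. Ctrb1 and Cuzd1 were instead positive on both FeO arrays, with means of 0.19 and 0.31.

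Islet markers had a median of -0.33 in FeD, with 1 of 8 called lower, Iapp. Their median in FeO was -0.65, with 5 of 8 called lower and 1, Gcg, called higher. The summed islet signal was 159000 in FeD against 234000 in FeA on array 1, and 171000 against 198000 on array 2. In FeO it was 122000 against 244000 on array 1, and 140000 against 214000 on array 2. The islet sum, in which Ins1 is the brightest gene, was lower than in FeA on all 4 arrays. Gcg was instead positive on all 4, with means of 0.21 in FeD and 1.14 in FeO, and Ppy had means of 0.17 in FeD and -1.20 in FeO.

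Adipocytes, which are not pancreatic parenchyma, had a marker median of -0.03 in FeD (array 1 -0.14, array 2 -0.03) with 0 of 7 called. In FeO their median was 1.83, with 5 of 7 called higher, Cfd being the brightest. The summed adipocyte signal was 39400 in FeO against 12300 in FeA on array 1, and 38200 against 11200 on array 2. In FeD it was 9830 against 11800, and 8540 against 9370. Adipocyte signal was higher in FeO on both arrays. The lower sums in FeD went with Cfd, which had a mean of -0.40. Retn and Lep were also negative on both FeD arrays, with means of -0.44 and -0.22. Adipoq alone was positive on both, at 0.17 and 0.26, and 3 of 7 had opposite signs, so the list had no common direction in FeD. Of the brown adipocyte markers, whose cells are packed with respiratory chain, Cidea alone was above background, with means of 0.14 in FeD and 1.23 in FeO, where it was called higher. Ucp1, the defining marker of brown fat, was not above background, nor were Dio2 and Elovl3. Without the filter on dim probes, the median of the brown adipocyte list in FeO was -0.01. Their summed signal, 592 in FeD against 553 in FeA on array 1, 589 against 537 on array 2, and in FeO 1070 against 558 and 954 against 535, holds Cidea and 3 genes at background.

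Lymphoid markers had a median of 0.53 in FeD, with 4 of 7 called higher, and of -0.74 in FeO, with 3 of 5 called lower, while Cd2 and Ms4a1 were not above background in FeO. Cd3d was the brightest of these markers. Their summed signal was 3880 in FeD against 2540 in FeA on array 1 and 3620 against 2260 on array 2. In FeO it was 1560 against 2490, and 1730 against 2520. Lymphoid signal was therefore above FeA in FeD and below it in FeO. Intestinal epithelium markers had a median of -0.34 in FeD (array 1 -0.76, array 2 -0.56), with 3 of 7 called lower, and of -0.52 in FeO (array 1 -0.59, array 2 -0.46), with 4 of 7 called lower. Over the alternative settings the median ran from -1.28 to -0.19 in FeD and from -1.96 to -0.29 in FeO. Their summed signal was 4260 in FeD against 6450 in FeA on array 1 and 4970 against 6590 on array 2, and in FeO it was 3610 against 6380, and 4340 against 6560. The sums were thus lower than in FeA on all 4 arrays, and Lgals4, Cdh17 and Krt20 were called lower in each diet. Cdx1, the brightest marker of the list, was instead positive on all 4 arrays, with means of 0.16 in FeD and 0.13 in FeO. The intestinal transporters Slc15a1 and Slc5a1 were not above background.

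Other cell types were read in the same way. Duct markers had a median of 0.09 in FeD (array 1 0.11, array 2 0.01) with 0 of 6 called and of -0.11 in FeO (array 1 -0.05, array 2 -0.27) with 1 called lower, Krt19. Macrophage markers had a median of 0.22 in FeD with 0 of 4 called and of 0.14 in FeO (array 1 0.32, array 2 0.06) with 1 called higher, Cd163. Erythroid markers had a median of 0.43 in FeD with 2 of 4 called higher, and of 0.33 in FeO (array 1 0.23, array 2 0.48) with 0 called. Alas2, the haem synthesis enzyme of erythroid cells, was the highest of them in FeD at 1.24. Smooth muscle markers had a median of -0.35 in FeD (array 1 -0.64, array 2 -0.07) with 1 of 6 called lower, Myh11, and of 0.06 in FeO (array 1 -0.21, array 2 0.43) with 0 called. Mesothelium markers had a median of 0.14 over 2 genes in FeD (array 1 0.07, array 2 0.21) with 0 called and of 0.83 over 3 genes in FeO with 2 called higher, and their summed signal in FeO was 2880 against 1680 in FeA on array 1 and 2440 against 1330 on array 2. Of 9 skeletal muscle markers only Mylpf was above background, with means of -0.04 in FeD and 0.12 in FeO (array 1 0.24, array 2 -0.01). The part of these cell types in the ratios of the respiratory chain genes was not tested.

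Tests that compare the RNA pools, and not the diets, were run as alternatives. The t-test of the study's methods was used at an unadjusted threshold of 0.05, without the study's fold change criterion. It takes the signals of the pools and does not pair them by array. By this t-test, 3 members were lower in FeD, Atp5j, Cox5b and Ndufb4 (3.61% of members, 2.97% of genes), and 0 were higher (3.17% of genes). In FeO, 2 were lower, Atp5hl1 and Ndufb4 (2.41% of members, 3.66% of genes), and 2 were higher, Ndufs7 and Sdhd (2.41% of members, 3.86% of genes). By limma, unadjusted, Atp5a1 was lower (1.2% of members, 2.76% of genes) and Cox6b2 higher (1.2% of members, 5.46% of genes) in FeD. Atp5a1, Ndufb4 and Ndufb4l1 were lower (3.61% of members, 5.26% of genes) and Ndufs7 higher (1.2% of members, 6.79% of genes) in FeO. After Benjamini-Hochberg adjustment over all probes, 0 members passed by either test in either comparison. Among all genes, 35 were then lower and 13 higher in FeD by limma, and 56 lower and 48 higher in FeO, against 0 by the t-test.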

How the data were processed

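Pancreatic RNA of pooled rats was compared on 4 two-colour Agilent arrays. The authors deposited scanner intensities made with Feature Extraction 10.1.1.1, and the intensity values used here are median spot and local background signals without correction. The other deposited tables are the authors' own, and from them only gene symbols were taken, while their fold changes, p-values and q-values were not used. In R 4.3.3 with limma 3.58.1, background was corrected by normexp (offset 50), loess was applied within each array, and outlier spots were left out (722, 938, 764 and 735). Ratios were turned to diet over FeA and averaged over both arrays. A probe passed when more than 50% of its spots were well above background in at least 1 pool on both arrays, and a gene was its brightest probe. Tables were made in Python 3.11.15 with pandas 2.3.3. The steps were tested on simulated data by the main setting only. The planted changes were larger than any member's mean, so differences as small as those reported here were not covered.

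Named genes are, per comparison and direction, up to 10 members with the most extreme mean among those with the same sign on both arrays, the extremes of each complex, iron-sulfur, Sdh and complex IV isoform genes, Ndufa4, and genes whose probes differ by more than 0.5. Of the lists of related and marker genes, some of the extreme, brightest, called and defining genes are named, and not all of them. The values of 1 named gene are not reported here. Members and lists were chosen with earlier results of these data known. Alternatives were an offset of 0, no background subtraction, processed signals, median centring, other filters, sizes of 0.3, 1 and 2, all probes of a gene, probes as units, other memberships, each array left out, the methods' t-test and limma. The number of arrays limits the precision.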

Additional observations from a re-analysis of the deposited data

Results flagged for a closer look

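In 10 genes and 1 complex, both arrays of FeD over FeA had the opposite sign to both arrays of FeO over FeA, and the difference between the comparisons, which share the FeA pool, was not tested. In 9 genes (10.8% of members, 3.64% of 15259 genes) FeD was negative and FeO positive, and in 1 gene (1.2% of members, 4.68% of genes) the reverse held. The values are the FeO mean log2 ratio minus the FeD mean.

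In complex I the difference was 0.29 for Ndufa9 (FeD -0.19, FeO 0.10). It was 0.14 for Ndufb9 (FeD -0.04, FeO 0.10), and 0.14 for Ndufv2 (FeD -0.04, FeO 0.09). For Ndufa5, an accessory subunit of the hydrophilic arm, it was 0.06 (FeD -0.02, FeO 0.04). Sdhb had a difference of 0.21 (FeD -0.11, FeO 0.10) and Sdhd of 0.22 (FeD -0.06, FeO 0.16). The median of complex II differed by 0.2, from -0.07 in FeD to 0.13 in FeO. Uqcrfs1 of complex III had a difference of 0.24 (FeD -0.14, FeO 0.10). Cox8b of complex IV, whose signal was near background, had a difference of 0.08 (FeD -0.04, FeO 0.04). Atp5l, a small subunit of the membrane part of complex V, had a difference of 0.18 (FeD -0.14, FeO 0.04) by its brightest probe, while its other probe read 0.10 and -0.50 in FeD and 0.36 and -0.39 in FeO. Atp5j2 was the gene with FeD above 0 and FeO below 0, with a difference of -0.17 (FeD 0.04, FeO -0.14). The signs are those of the loess-normalized ratios. With median centring, 0 members met the condition (4.82% of genes), and the median of complex II was 0.30 and -0.58 on the arrays of FeD and 0.58 and -0.21 on those of FeO. Of the 10 genes, 3 met it with processed signals, Ndufv2, Sdhb and Sdhd, 8 with an offset of 0, 9 without background subtraction and 9 with the mean of all probes. In their means over both arrays, Atp5j2 was -0.03 in FeD and 0.05 in FeO with median centring, and Cox8b was -0.01 in FeD and -0.02 in FeO.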

How the results depend on the processing

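The counts of called members, 0 in each comparison and direction, were 0 as well with each other background correction, normalization and filter tried and with sizes of 1 and 2, but not with the settings named next. With a size of 0.3, 1 member was higher in FeD, 3 were lower and 2 higher in FeO. By the methods' t-test, unadjusted, 3 were lower in FeD, and 2 lower and 2 higher in FeO. By limma, unadjusted, 1 was lower and 1 higher in FeD, and 3 were lower and 1 higher in FeO. By either test 0 passed after adjustment. With each array left out, where no second array had to share the sign, 0 to 1 were lower and 2 to 2 higher in FeD, and 0 to 1 lower and 0 to 3 higher in FeO. The 1 lower in FeD came without array 2 (2.05% of all genes), and the 1 lower and 3 higher in FeO without array 1 (4.63% and 8.45% of all genes). The 2 higher in FeD compare with 5.15% of all genes without array 1 and 3.05% without array 2.

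The members' median ran from -0.12 to -0.05 in FeD and from -0.04 to 0.08 in FeO over the other settings. With median centring in place of loess, the median of complex V in FeO was 0.12 (array 1 0.60, array 2 -0.43). The cause was not tested. All genes then had medians of 0.22 and -0.20 on the arrays of FeD and of 0.21 and -0.11 on those of FeO, where the members had 0.35 and -0.62, and 0.53 and -0.33. Of 49 named genes, 6 changed sign with it in FeD and 11 in FeO, none of them with a mean of 0.2 or more in size. Leaving out array 1 changed the sign of 9 named genes in FeD and 5 in FeO, and leaving out array 2 that of 10 in FeD and 7 in FeO. Among them Uqcrq, in FeD without array 1, had a mean of 0.2 or more in size. Without genes that are not subunits, copies and a pseudogene, an alternative chosen after seeing the data, the 75 genes left had medians of -0.06 in FeD and -0.04 in FeO.

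The log2 ratios are paired by array, since each sets a diet pool against the FeA pool on the same array. Rats could not be paired or used as replicates because each diet is 1 RNA pool. A slide could not be a block because all 4 arrays lie on 1 slide. Ndufa4l2 and Atp5if1 were not among the probes matched. Low signal limits Cox8c, which has no ratio, and Atp5s, which was above background in the FeD pool on 1 of 2 arrays.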
